A study of Saccharomyces cerevisiae with 2 samples.

Results

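The genes described here encode subunits of the nuclear RNA exosome of the budding yeast Saccharomyces cerevisiae. They are 10 genes chosen by name, RRP4, RRP6, RRP40, RRP42, RRP43, RRP45, RRP46, MTR3, CSL4 and DIS3, of 5598 genes with a ratio on both arrays. The study set yeast given 3% pyruvate against yeast given 2% glucose. Each of 2 dual-colour arrays held total RNA of both conditions. Array 1 carried the glucose RNA in Cy5 and array 2 the pyruvate RNA in Cy5. No source used here gives the strain, genotype, culture or growth stage.

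The exosome degrades and trims RNA from the 3′ end. In the nucleus it matures ribosomal RNA and small RNAs and removes faulty or unstable transcripts. In yeast its core is a ring of RNase PH-like proteins, catalytically inactive, covered by a cap of proteins with S1 and KH RNA-binding domains. RNA is threaded through cap and ring to Dis3, which carries exonuclease and endonuclease activity. Rrp6, a further exonuclease, joins the complex in the nucleus, whereas the core and Dis3 also act in the cytoplasm, so most of these genes are not specific to the nuclear form. SKI6, which encodes the remaining ring subunit (Rrp41), is not among the 10 genes and is given for comparison. The core subunits and Dis3 are essential in yeast, and Rrp6 is not.

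Each value is a log2 ratio of pyruvate over glucose on an array, after the sign of array 1 was turned, or its mean over the arrays with the SD (n = 2). No source states this direction, which is taken as likely because Cy5 over Cy3 is the usual order. With the other order every sign would turn. In this direction ADH2, FBP1, JEN1 and ICL1, which glucose represses, had mean ratios of 3.80 to 6.06, and HXT3, a low-affinity glucose transporter gene, stood at -2.48. Precision is limited by there being 2 arrays. Whether they came from separate cultures is not labelled, so p-values reflect only the spread from array to array, and that may be technical. A ratio of labelled RNA shows a transcript's amount relative to the other transcripts, so a change in amount per cell and a change in share of the RNA cannot be told apart.

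In pyruvate, transcripts of both exonucleases and of 3 ring subunits were lower, by moderate amounts. The other 2 ring genes and the 3 cap genes were not called. The genes that fell were DIS3 (-0.77 ± 0.06, 1.70-fold lower), RRP46 (-0.62 ± 0.04, 1.54-fold lower), RRP6 (-0.54 ± 0.14, 1.46-fold lower), RRP43 (-0.50 ± 0.07, 1.41-fold lower) and RRP42 (-0.49 ± 0.03, 1.40-fold lower). Hence 5 of the 10 genes fell at an adjusted p under 0.05 in limma, a linear model that shares the spread over all genes, with Benjamini-Hochberg adjustment over 5598 genes. Over all genes 17.2% were called lower. By the same test 0 of the 10 rose, against 27.1% of all genes, and the other 5 did not pass. At an unadjusted p under 0.05, limma gave 6 of the 10 as lower and 0 as higher, against 23.4% and 33.4% of all genes. The median of the 10 mean ratios was -0.39, against 0.10 over all genes.

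Centring each array on its median moved the median of the 10 genes to -0.49 and left their counts at 5 lower and 0 higher, against 22.5% and 24.9% of all genes. The calls were lost without moderation of the variances, where 0 of the 10 and 0.179% of all genes passed and the adjusted p of the 5 genes lay between 0.154 and 0.23. Against a minimum change of 1.5-fold, 0 of the 10 and 13.5% of all genes passed. None of the 10 reached a 2-fold change on both arrays.

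**Figure D1:**
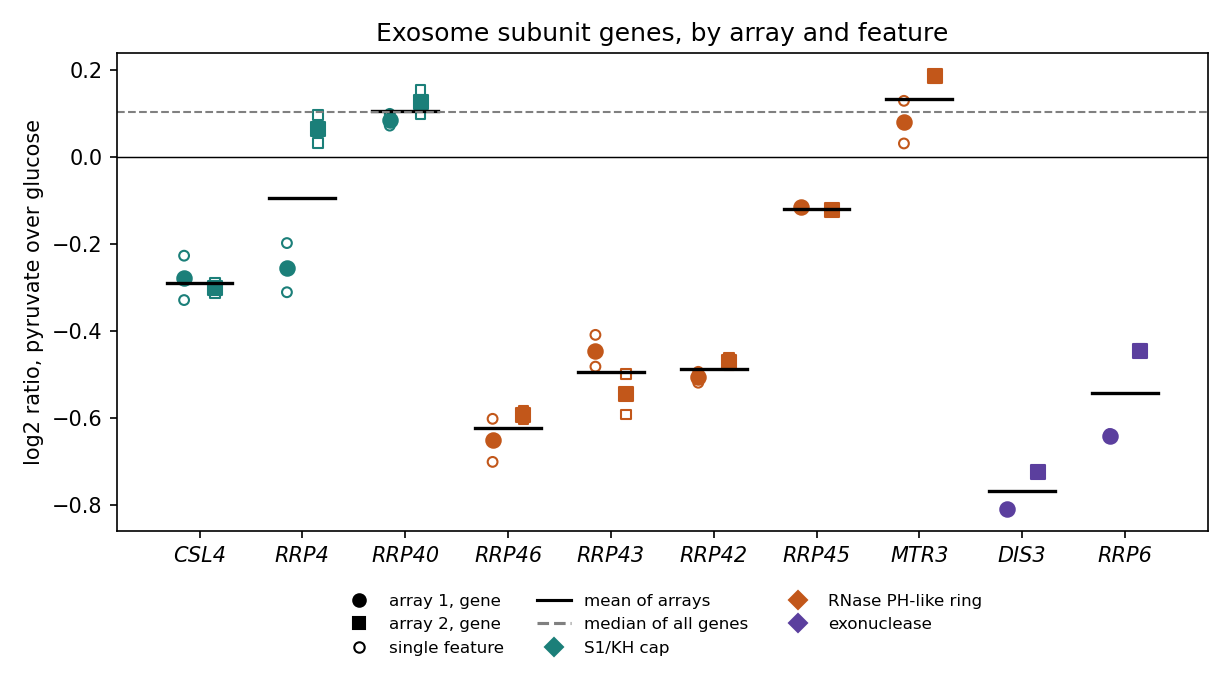
Log2 ratio of pyruvate over glucose (vertical axis) for each exosome subunit gene (horizontal axis), grouped by role. Filled circles are array 1 and filled squares array 2, open symbols are single array features, black bars are means of the arrays and the dashed line is the median of all genes. DIS3, RRP46, RRP6, RRP43 and RRP42 lay between -0.81 and -0.45 on both arrays, while RRP4 lay at -0.25 on array 1 and 0.06 on array 2.

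Both exonuclease genes fell. DIS3, whose product is the processive nuclease of the core complex, had ratios of -0.81 on array 1 and -0.725 on array 2. Both values lay far below 0 and close together. The mean of -0.77 had a 95% limma interval of -1.06 to -0.47 and an adjusted p of 0.0208, and it was the lowest of the 10 genes, at the 10.9th percentile of all genes. Many yeast genes thus had a lower ratio than the most reduced exosome gene.

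RRP6, which encodes the nuclear exonuclease that acts distributively at the RNA 3′ end, had ratios of -0.64 on array 1 and -0.445 on array 2. It was below 0 on both arrays, with a wider gap between them than DIS3. Its mean of -0.54 had an interval of -0.89 to -0.20 and an adjusted p of 0.0423, the highest among the genes called. DIS3 was lower than RRP6 by 0.17 on array 1 and by 0.28 on array 2. The direction of that difference was the same on 2 of 2 arrays, and the difference itself was not tested.

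The ring genes divided into 3 that fell and 2 that were not called. Ring subunits sit as pairs, Rrp43 with Rrp46, Rrp42 with Mtr3, and Rrp45 with Rrp41. In the first pair both genes fell. RRP46 had ratios of -0.65 and -0.59 on arrays 1 and 2 (adjusted p of 0.0261), and RRP43 had -0.45 and -0.55 (adjusted p of 0.0388). RRP46 was lower than RRP43 on both arrays, by 0.21 on array 1 and 0.05 on array 2.

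In the second pair the genes parted. RRP42 had ratios of -0.51 and -0.47 on arrays 1 and 2, with an interval of -0.77 to -0.21 and an adjusted p of 0.0366. MTR3 had 0.08 and 0.185, slightly above 0 on both arrays. Its mean of 0.13 ± 0.07 had an interval of -0.17 to 0.43 and an adjusted p of 0.312, and the mean of RRP42 lay outside that interval. MTR3 exceeded RRP42 by 0.59 on array 1 and 0.66 on array 2, a mean difference of 0.62 ± 0.05 (SD, n = 2) that was large beside the spread between the arrays and was not tested further.

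In the third pair neither gene was called. RRP45, at -0.116 on array 1 and -0.122 on array 2, had the smallest spread of the 10 genes, with a mean of -0.12 ± 0.004. Its interval, -0.40 to 0.16, comes mainly from the spread shared over genes, and its adjusted p was 0.326. SKI6 had ratios of -0.47 on array 1 and -0.27 on array 2. Its mean, -0.37 ± 0.14, lay among those of the ring genes, with an interval of -0.72 to -0.02 and an adjusted p of 0.0813. At an unadjusted p under 0.05, limma gave SKI6 as lower, as it did 23.4% of all genes, but not RRP45. SKI6 was lower than RRP45 by 0.355 on array 1 and by 0.15 on array 2.

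Of the 3 cap genes, 0 passed limma's test in either direction, against 17.2% of all genes called lower and 27.1% higher. At an unadjusted p under 0.05, limma gave 1 of the 3 as lower, against 23.4% of all genes. That gene, CSL4, encodes a cap subunit with an S1 domain. It had ratios of -0.28 and -0.30 on arrays 1 and 2, below 0 on both. The mean of -0.29 ± 0.02 had an interval of -0.57 to -0.01 and an adjusted p of 0.0843. The smallest mean that limma called in any gene was 0.3975 in size, so no gene with a mean as small as that of CSL4 was called.

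RRP4, another cap gene with RNA-binding domains, had a ratio of -0.25 on array 1 and 0.06 on array 2. It was the only gene of the 10 with opposite signs on the arrays, as were 16.1% of all genes. Its mean of -0.10 ± 0.23 had the widest interval of the 10 genes, -0.53 to 0.34, and an adjusted p of 0.592. That interval took in the means of RRP42 and RRP43 as well as 0.

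RRP40, the remaining cap gene, had ratios of 0.09 on array 1 and 0.13 on array 2, both slightly above 0. The mean was 0.11 ± 0.03, close to the median of all genes, with an interval of -0.18 to 0.39 and an adjusted p of 0.377. After centring each array the mean ratio of RRP40 was 0.004 and that of MTR3 0.03, so these genes stood at the middle of all genes.

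Ordered from the lowest mean, the genes ran DIS3, RRP46, RRP6, RRP43, RRP42, CSL4, RRP45, RRP4, RRP40 and MTR3, over a span of 0.90 log2 units (1.87-fold). A gap between neighbours in this order was set against the square root of the summed variances of the 2 genes. The gap was larger than that spread at 3 of the 9 steps, those from DIS3 to RRP46 (0.15), from RRP42 to CSL4 (0.20) and from CSL4 to RRP45 (0.17). The steps between RRP46, RRP6, RRP43 and RRP42 were within the spread, and so were those between RRP45, RRP4, RRP40 and MTR3. This measure rests on SDs of 2 values and does not establish separate groups. The limma interval of DIS3, -1.06 to -0.47, held the means of RRP46, RRP6, RRP43 and RRP42. That of CSL4, -0.57 to -0.01, held the means of RRP42 and RRP45. After centring each array the SD of DIS3 alone, 0.17, exceeded its gap to RRP46. Differences between neighbours were not tested.

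**Figure D2:**
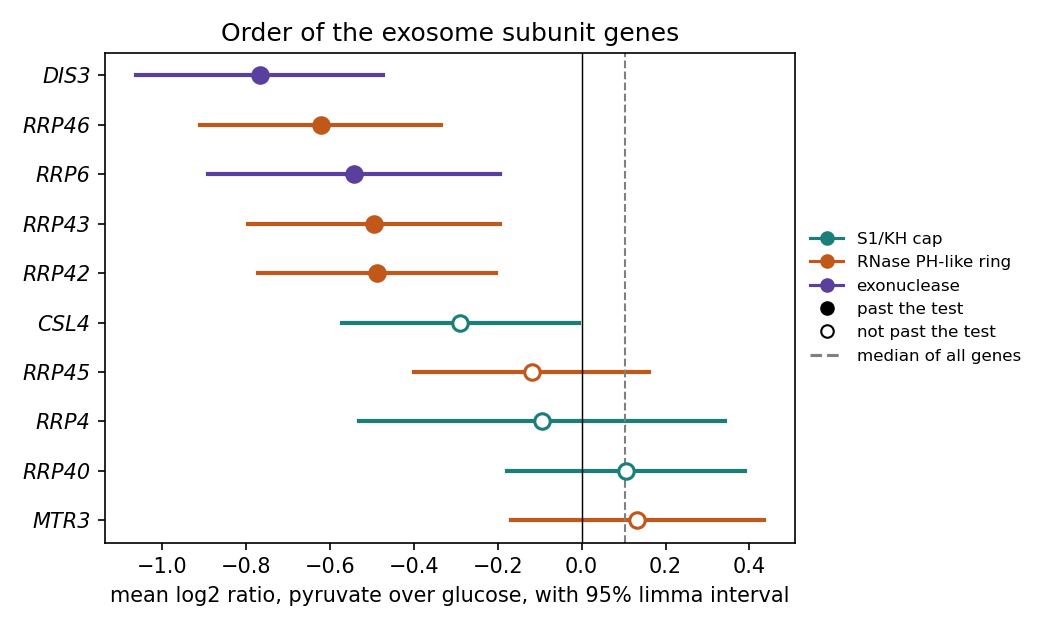
Mean log2 ratio of pyruvate over glucose (horizontal axis) with its 95% limma interval (lines) for each exosome subunit gene (vertical axis), ordered by mean and coloured by role. Filled points passed the test and open points did not, and the dashed line is the median of all genes, 0.10. The 5 filled points run from -0.77 (DIS3) to -0.49 (RRP42), and the intervals of RRP45, RRP4, RRP40 and MTR3 include 0.

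Before centring, the arrays gave alike values for most of these genes. The SD between the uncentred arrays had a median of 0.05 over the 10 genes, against 0.13 over all genes. It ranged from 0.004 in RRP45 to 0.23 in RRP4. After each array was centred on its median, the SD ran from 0.04 in RRP43 to 0.34 in RRP4. The closeness of the arrays for these genes therefore depends on leaving the arrays uncentred. The median of the 10 genes was -0.36 on array 1 and -0.37 on array 2, while that of all genes was 0.18 and 0.02. On both arrays 7 of the 10 genes were below 0, against 36.3% of all genes, and 2 were above 0, against 47.3%. With 1 array for each dye order, a dye effect and any other difference between the arrays cannot be told apart.

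**Figure D3:**
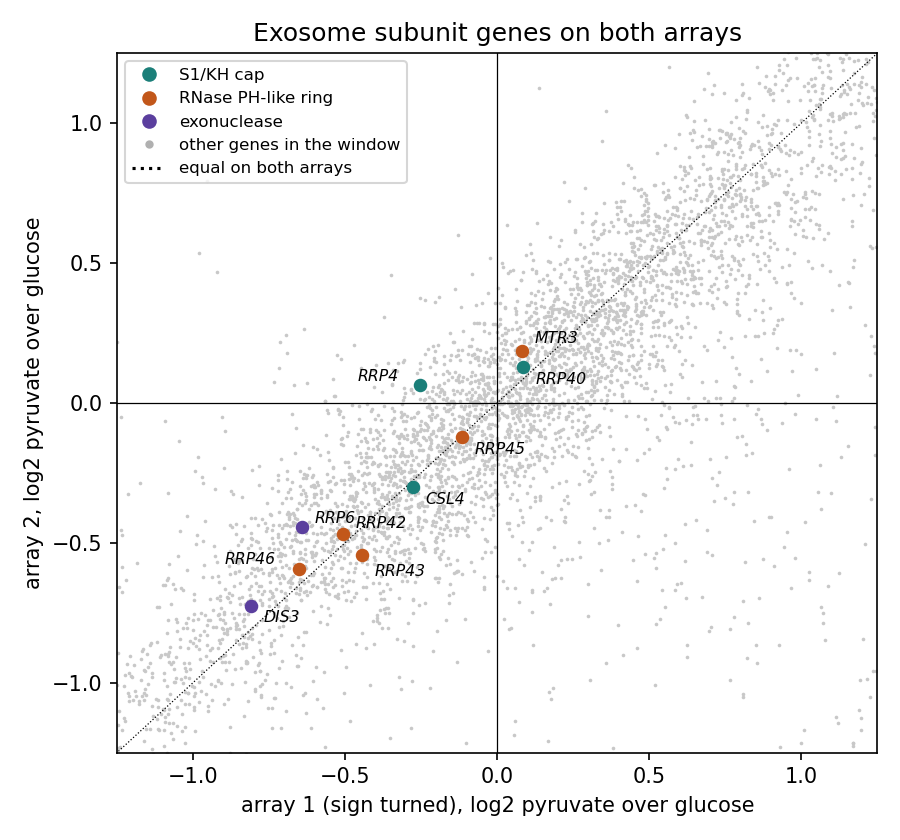
Log2 ratio of pyruvate over glucose on array 1, sign turned (horizontal axis), against array 2 (vertical axis), for the exosome subunit genes (coloured by role, named) and other genes within the window shown (grey). The dotted line marks equal values. Exosome genes lie along that line except RRP4, at -0.25 and 0.06, and RRP6, at -0.64 and -0.445, which lie above it.

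Repeated features gave the same picture within genes. Of the 10 genes, 8 were read by 2 features each, and DIS3 and RRP45 by 1 feature. Features of a gene differed by 0.008 to 0.113 on an array, with a median of 0.041, against 0.052 over all genes with several features. The features of RRP6 read -0.646 and -0.637 on array 1 and -0.441 and -0.449 on array 2, so its gap between arrays was present in both. Likewise both features of RRP4 were below 0 on array 1 (-0.311 and -0.198) and above 0 on array 2 (0.097 and 0.032). None of the 18 features of these genes lay at a ratio of small whole numbers, the mark used here for dim spots.

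Genes for proteins that bring RNA to the nuclear exosome were compared by the same fit, as were the lists after them. Over all genes that fit called 17.2% lower and 27.1% higher. In the TRAMP complex, which adds short poly(A) tails and unwinds RNA for the exosome, 4 of 5 genes fell and 1 did not pass. MTR4, its helicase, had ratios of -0.92 and -0.76 (adjusted p of 0.0213). AIR1 (-1.07 ± 0.02) and PAP2, a poly(A) polymerase gene (-1.03 ± 0.09), fell and had lower means than each of the 10 exosome genes, and TRF5, its paralogue, stood at -0.80 ± 0.20. AIR2, which encodes the other zinc-knuckle protein, was at 0.11 and -0.09 and did not pass.

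Of 4 genes for nuclear cofactors and adaptors, 2 fell, 1 rose and 1 did not pass. UTP18 (-1.13 ± 0.10) and NOP53 (-0.92 ± 0.25), ribosome assembly genes whose products dock Mtr4 on pre-ribosomes, fell. LRP1, which encodes the Rrp6-binding protein Rrp47, rose, with 0.60 on array 1 and 0.77 on array 2 (adjusted p of 0.0276). RRP6 and LRP1 thus moved in opposite directions, and LRP1 exceeded RRP6 by 1.24 on array 1 and 1.21 on array 2. MPP6, another nuclear cofactor gene, was at 0.42 ± 0.08 with an adjusted p of 0.0527 and did not pass.

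In the Nrd1-Nab3-Sen1 complex, which ends transcription of short noncoding RNAs and hands them to the exosome, 2 of 3 genes fell. They were NRD1 (-0.52 ± 0.08) and SEN1 (-0.49 ± 0.04), close in size to RRP42 and RRP43. Of 4 genes of the cytoplasmic Ski complex and SKI7, 0 passed limma's test. At an unadjusted p under 0.05, limma gave 1 of the 4, SKI8, as lower, against 23.4% of all genes. SKI2, the helicase gene, was at -0.33 ± 0.14 and SKI8 at -0.32 ± 0.08.

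In a list of 8 genes for other exonucleases of RNA processing and their partners, 4 were lower, 2 higher and 2 not called. Over all genes 17.2% were called lower and 27.1% higher. After centring each array 4 of the 8 were lower and 1 higher, against 22.5% and 24.9% of all genes. REX4 (-1.55 ± 0.09) and RRP17 (-1.17 ± 0.12), of pre-ribosomal RNA processing, were the lowest, both below DIS3. Of 6 genes that process the internal transcribed spacer whose end the exosome trims, 4 fell and 2 did not pass, with NOP7 at -1.31 ± 0.28 and GRC3, a polynucleotide kinase gene, at -1.19 ± 0.21. The list medians were -0.38 for the other exonucleases, -0.93 for the spacer genes, -0.84 for TRAMP and -0.39 for the exosome subunits. Neither these lists nor the exosome genes were tested as sets.

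**Figure D4:**
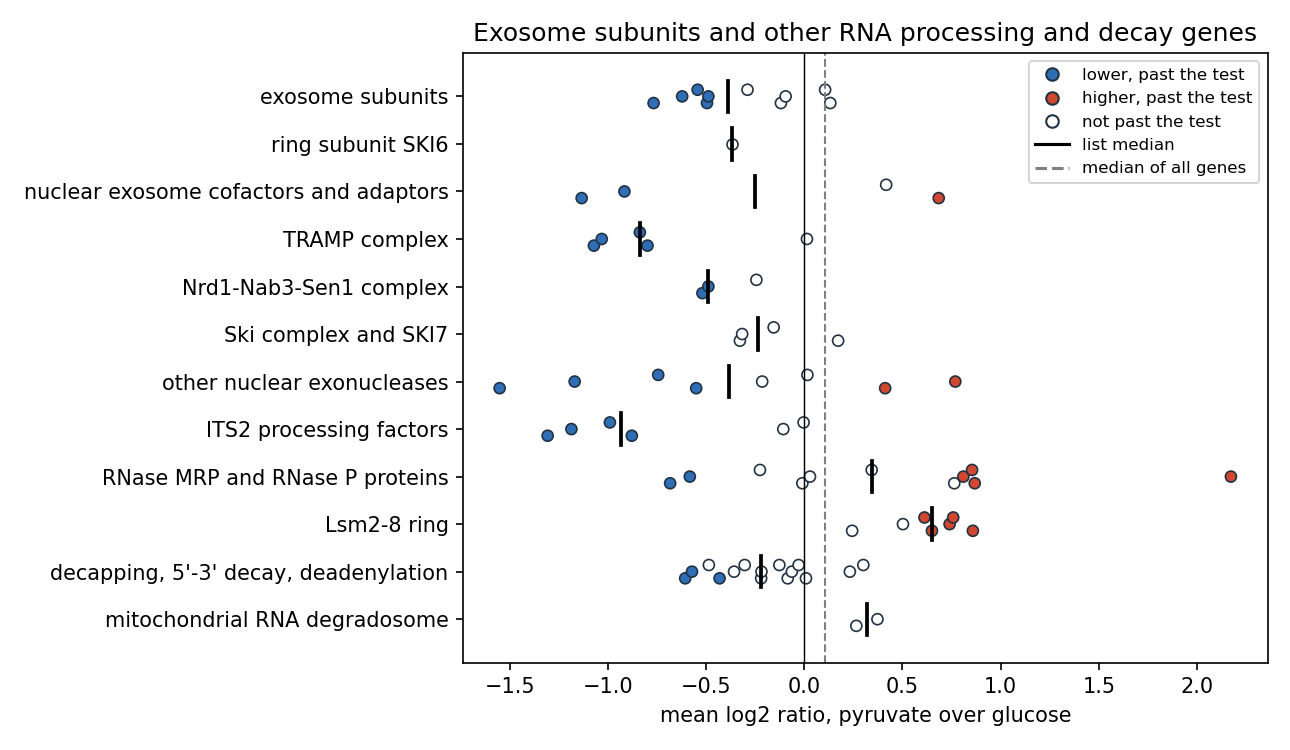
Mean log2 ratio of pyruvate over glucose (horizontal axis) for genes of the exosome and of other RNA processing and decay lists (rows). Points are genes, blue for lower and red for higher past the test and open for not past it, black bars are list medians and the dashed line is the median of all genes. The exosome subunits, with a median of -0.39, have 5 blue points, TRAMP (median -0.84) has 4, and the Lsm ring (median 0.65) has 5 red points.

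Other genes had like values. Those whose values on the 2 arrays lay nearest to the exosome medians, by Euclidean distance, were CHD1, UBP12, GAL83, CLA4 and TSR3, at distances of 0.008 to 0.018. In all, 117 genes lay within a distance of 0.1. With 2 arrays such nearness rests on 2 values a gene and describes position only.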

How the data were processed

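The values are the authors' deposited log2 ratios of the channels for 10807 features on each of 2 arrays, with 10 and 6 missing. Per the labels, an Agilent kit for low RNA input served to amplify and label the RNA, with dyes swapped. No source used here gives scanner, background correction or normalization, and signal over background is unknown. Base 2 was inferred because 864 features of array 1 equalled, to 3 decimals, log2 of quotients of whole numbers no larger than 10 (other offsets: median 131, highest 344). For array 2 this held for 748 after an offset of 0.008 (median 135.5, highest 479). Deposited medians were -0.29 and -0.08. The Pearson r between the columns as deposited was -0.81 over features with a gene, 0.86 over those without and 0.157 over all, and array 1 was turned by -1 because the labels exchange the dyes.

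The platform's annotation gave 1 gene for 9202 features, several for 0 and none for 1605. Current names came from RefSeq identifiers for 9194 of them. Coordinates are not given. Features were averaged per gene, and genes were fitted with limma 3.58.1 (lmFit, eBayes, 1 residual and 1.67 prior degrees of freedom) in R 4.3.3, with Benjamini-Hochberg adjustment over all genes. No dye term was fitted, since the residual degree of freedom would be used up. The steps were tested on simulated data. Tables and figures used Python 3.11.15, pandas 2.3.3, numpy 2.4.6 and matplotlib 3.10.9.

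The exosome genes and the other lists were chosen with earlier results of these data known. Named are all 10 exosome genes, SKI6, LRP1, MPP6, MTR4, per list the 2 genes farthest from 0 by mean and alike in sign on the arrays, the 5 nearest genes and 5 checks of the carbon source. Other genes were named after their values were seen. Alternatives covered centring, scaling, features, moderation, thresholds, dim features and leaving out an array.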

Additional observations from a re-analysis of the deposited data

How the results depend on the processing

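Without moderation the counts of genes lower and higher in pyruvate were 0 and 0 among the exosome genes, 0 and 0 among the 66 listed RNA processing and decay genes (21 and 12 as reported), and 5 and 5 among all genes (963 and 1519 as reported). Against a minimum change of 1.5-fold they were 0 and 0, 2 and 1, and 184 and 573. The second setting is stricter by construction. The first leaves each gene's test 1 residual degree of freedom, and 0.179% of all genes passed it. That loss of calls was thus not particular to the exosome genes, and its cause was not tested. The median of the exosome genes was -0.49 after centring each array, and between -0.37 and -0.36 with 1 array left out, where no test could be made and RRP4 read 0.06 on array 2 alone against a mean of -0.10. Of 90 values for single exosome genes under the alternatives that kept both arrays, 79 kept their direction and side of the threshold. Another 10 lost the call, those of all 5 called genes in the unmoderated and minimum-change fits, and 1, CSL4 at an adjusted p under 0.1, gained it. The 79 are a weak check. Only centring and scaling could alter a mean and so its direction. Taking medians over features or dropping dim features could not, since these genes have 1 or 2 features each and none is dim. The other alternatives that kept both arrays reused the same means. Apart from the unmoderated and minimum-change fits, the adjusted p of the 5 genes called ranged from 0.00627 (DIS3) to 0.0484 (RRP43). Each ratio sets both conditions against each other on the same array, so the fit of the ratios is itself paired, and the arrays form a single group.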

Other observations

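Genes of other RNA machines were counted by the same test, which called 17.2% of all genes lower and 27.1% higher. The counts of lower genes for RNase MRP and RNase P and for decapping and decay lay near the share of all genes. None of these lists was tested as a set. In a list of 7 Lsm ring genes, LSM2 to LSM8, 5 rose and 2 did not pass, with LSM2 at 0.86 ± 0.13 and LSM7 at 0.76 ± 0.06. After centring each array 4 of the 7 were higher, against 24.9% of all genes. Of 11 protein genes of RNase MRP and RNase P, endonucleases of ribosomal and transfer RNA precursors, 4 rose, 2 fell and 5 did not pass, with POP6 at 2.17 ± 0.11 and POP7 at 0.87 ± 0.25. Of 15 genes of decapping, decay from the 5′ end and deadenylation, 3 fell and 12 did not pass, with PAT1, a decapping activator, at -0.61 ± 0.07 and CAF40, of the Ccr4-Not complex, at -0.57 ± 0.04. Of the 2 genes of the mitochondrial RNA degradosome, DSS1 (0.37 ± 0.06) and SUV3 (0.27 ± 0.10), 0 passed limma's test. At an unadjusted p under 0.05, limma gave 1 of the 2, DSS1, as higher, against 33.4% of all genes.

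Genes next to the starts of the exosome genes, by the order of protein-coding genes in RefSeq's R64 assembly, were looked up after the values were seen. Of the 10 neighbours, 4 were called, near the 44.3% of all genes called in either direction, and 5 were transcribed away from the exosome gene. Among these, TRM5, a transfer RNA methyltransferase gene beside RRP4, was at -0.91 ± 0.06 and was called lower, and RIB4, a riboflavin synthesis gene beside RRP40, was at 0.78 ± 0.14 and was called higher, while RRP4 and RRP40 themselves were not called. The divergent neighbours of the genes that fell, TAT2 beside DIS3 (-0.26 ± 0.03), TPC1 beside RRP46 (-0.07 ± 0.07) and RBK1 beside RRP43 (0.29 ± 0.004), did not pass. Of the 5 neighbours on the same strand, PHO80 beside RRP6 (0.009 ± 0.08), RNH202 beside RRP45 (0.07 ± 0.02) and BNI4 beside CSL4 (-0.10 ± 0.02) did not pass. TMA17, beside RRP42, was at 2.09 ± 0.22, and NSR1, a nucleolar protein gene beside MTR3, at -1.20 ± 0.33, and both were called. TMA17 rose while RRP42 fell, whereas MTR3 itself was not called in either direction.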
